A study of Sus scrofa with 61 samples.

Results

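S100G encodes calbindin-D9k, a small calcium-binding protein of the S100 family, and was followed in the liver of pigs before and after birth. The gene was selected on its log2 signal over the stages, and all probe-sets that the platform annotation maps to the symbol S100G were taken. These were 2 of 23999 non-control probe-sets, and S100G was 1 of 6765 genes with at least 1 probe-set of its own. Because the stage levels and the correlations among animals served to choose the gene, both are given for S100G as a description and without a test.

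The series examined how a low protein diet (LP) fed to German Landrace gilts during gestation affects hepatic expression in their offspring. Only LP offspring were analysed here, with 1 Affymetrix porcine array per animal: 16 fetuses of 94 days post conception (dpc), 14 piglets of 1 day post natum (dpn), 15 piglets of 28 dpn, and 16 pigs aged 188 dpn. Arrays of offspring of gilts on the adequate diet were not analysed here, so no value describes an effect of the diet. By the study's account the animals of each stage were chosen as sib pairs, balanced for sex. Pairs discordant for weight, a light and a heavy sib, were chosen at 94 dpc and 1 dpn only. The labels give neither the sex, the mother nor the weight of an animal, so the spread within a stage holds all of these. Fetuses were obtained by Caesarean section in an experiment of their own, and pigs were fasted overnight at 28 and 188 dpn, a fast that the sources used here do not give for 1 dpn. Stage and experiment between 94 dpc and 1 dpn cannot be told apart, nor can stage, feeding state and the choice by weight between 1 and 28 dpn. Each sample was bulk RNA of a piece of liver, in which fewer cells of a type and less RNA per cell cannot be told apart. The liver label held in all stages: each of the 17 measured hepatocyte markers lay above the array median, with ALB, the gene of serum albumin, at a mean of 15.64 to 16.31 on the log2 scale.

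Calbindin-D9k holds calcium in EF-hand loops and is known as a carrier that shuttles calcium through the cytoplasm of absorbing cells. In the duodenum its gene is induced by the active form of vitamin D through the vitamin D receptor, and in uterus and placenta it responds to steroid hormones. In pigs and humans the gene lies on the X chromosome. The liver is better known for the first steps of vitamin D activation, for the vitamin D-binding protein of plasma and for vitamin D breakdown than for calbindin-D9k.

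9 of the 61 arrays had a signal difference between the 3-prime and 5-prime probe-sets of GAPDH, beta-actin or EF1A that lay far from the other arrays of their stage, 2 of them from fetuses, 1 from a piglet at 1 dpn, 2 from piglets at 28 dpn and 4 from pigs at 188 dpn. One of them was the array of animal 21 at 1 dpn. Its GAPDH difference was 1.24 on the log2 scale, against 0.13 to 0.57 in the other 13 piglets, it correlated least with the arrays of its stage, and it held the lowest S100G level of that stage. Levels and correlations of S100G were also computed without these arrays. The beta-actin difference was 1.69 to 2.96 at 94 dpc and 1.33 to 2.65 at 1 dpn. At 28 and 188 dpn it was 3.44 to 4.78 and 3.39 to 4.79. That of EF1A was −0.25 to 0.09 at 1 dpn and 0.22 to 0.60 at 28 dpn. The GAPDH difference overlapped, at 0.13 to 1.24 and 0.64 to 1.09. Between 1 and 28 dpn stage and these differences cannot be told apart, and their part in the change of S100G was not tested.

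S100G gave one of the brightest signals of the array before birth and 1 day after it, and lay in the background at 28 and 188 dpn. The values below are from the probe-set with the higher mean, called the main probe-set, and a level is the log2 of the deposited signal. At 94 dpc the lowest, median and highest fetus had levels of 13.90, 14.63 and 15.43 (mean 14.69 ± 0.47, SD, n = 16). At 1 dpn the lowest, median and highest piglet had levels of 12.95, 14.73 and 15.65 (mean 14.56 ± 0.80, SD, n = 14). All 30 perinatal animals were thus far above their array median, which lay between 7.13 and 7.48. At 28 dpn the levels had a lowest value of 1.87, a median of 4.10 and a highest value of 6.97 (mean 4.04 ± 1.46, SD, n = 15). At 188 dpn they ran from 1.95 through a median of 3.33 to 5.33 (mean 3.38 ± 0.87, SD, n = 16). At 28 dpn 1 of 15 piglets exceeded its array median, by 0.11, and at 188 dpn none of 16 pigs did.

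**Figure D1:**
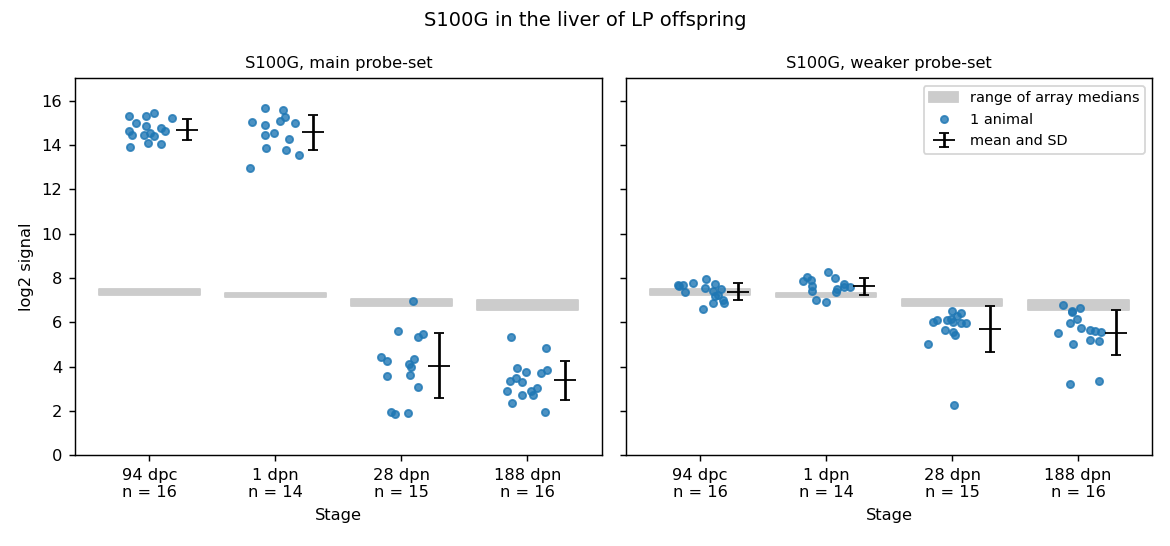
The log2 signal of the 2 S100G probe-sets (y axis) is plotted for each animal of the 4 stages (x axis), with the mean and SD in black and the range of the array medians in grey. The points of the main probe-set lie at 12.95 and above at 94 dpc and 1 dpn and at 6.97 and below at 28 and 188 dpn, whereas those of the weaker one lie close to the array medians at the first 2 stages and below them later.

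In units of signal the median was 25434 at 94 dpc and 27481 at 1 dpn, and 17.1 and 10.1 at the 2 later stages. Among the 23999 probe-sets of an array S100G ranked between 125 and 237 in the fetuses and between 40 and 458 at 1 dpn. These are ranks of brightness, which differs between probe-sets for the same amount of RNA. S100G made up on average 0.119% and 0.122% of the summed signal of these arrays.

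The mean level of 1 dpn minus that of 94 dpc was −0.13, less than the SD of either stage. The 2 stages overlapped, and 7 of 14 piglets lay above the median fetus. This difference turned to 0.02 after quantile normalization or with array medians subtracted, and to 0.04 without the outlying arrays, so that no order of the 2 stages was measured. From 1 to 28 dpn the mean changed by −10.53, and the lowest piglet at 1 dpn stood 5.98 above the highest at 28 dpn. Because a signal under the array median may be background alone, the change was also computed with the array median as the lowest level allowed, which gave −7.67. From 28 to 188 dpn the mean changed by −0.65, or by −0.17 with that floor. The stages overlapped, and levels this far below the array median have no order. The ordering of the stages was therefore 94 dpc and 1 dpn above 28 and 188 dpn, with no order inside either pair.

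The other probe-set was designed from a different sequence record and was much weaker. Its levels were 6.59, 7.44 and 7.97 for the lowest, median and highest fetus (mean 7.37 ± 0.38, SD, n = 16) and 6.93, 7.62 and 8.25 at 1 dpn (mean 7.63 ± 0.38, SD, n = 14). It was above the array median in 8 of 16 fetuses and 12 of 14 piglets at 1 dpn, and in no animal later. At 28 dpn its mean was 5.69 ± 1.03 (SD, n = 15) and at 188 dpn 5.54 ± 1.03 (SD, n = 16). Its change from 1 to 28 dpn was −1.94, or −0.78 with the floor, with no overlap between the stages. Within a stage the 2 probe-sets had a Pearson r of −0.08 over the 16 fetuses and 0.46 over the 14 piglets at 1 dpn. The loss of signal between 1 and 28 dpn was thus seen with both probe-sets, but the high perinatal level and the differences among animals rest on 1 probe-set.

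At 94 dpc and 1 dpn, animals of 1 stage differed in the deposited S100G signal more than in most genes with a stage mean of at least 12. The highest fetus had 2.89 times the signal of the lowest, and the highest piglet at 1 dpn 6.51 times that of the lowest, or 4.30 times without animal 21. At 94 dpc 578 genes had a stage mean of at least 12, S100G among them, with a median SD of 0.22, and 25 of them had a larger SD than S100G. At 1 dpn 18 of 644 such genes did, and their median SD was 0.27. Without animal 21 the SD of S100G at 1 dpn was 0.68 in place of 0.80. After quantile normalization the SD was 0.25 at 94 dpc and 0.69 at 1 dpn, and that of the other genes is not given on this scale. The part of the choice of light and heavy sibs in this spread was not tested.

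AFP and PEG10 had the stage profiles nearest to that of S100G. Likeness was measured over the 4 stage means, each profile centred on its own mean, as the root mean square difference from S100G, which had a median of 5.43 over 5503 genes. AFP, which encodes the fetal plasma protein alpha-fetoprotein, was nearest at 1.04. Its mean level was 15.75 ± 0.35 in fetuses and 15.72 ± 0.25 at 1 dpn, then 7.28 ± 0.68 at 28 dpn, and 3.92 ± 1.60 in the oldest pigs (SD). PEG10, an imprinted gene derived from a retrotransposon and active in placenta and fetal liver, followed at 1.65, with means of 15.24 ± 0.24, 13.51 ± 0.75, 7.32 ± 0.84 and 5.58 ± 0.91. S100G and AFP kept their level from 94 dpc to 1 dpn, with changes of −0.13 and −0.03 in overlapping stages, whereas PEG10 changed by −1.73 with no overlap. From 28 to 188 dpn AFP changed by −3.36 and PEG10 by −1.75, against −0.65 for S100G, but with the floor these were −0.64, −0.76 and −0.17.

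The next genes were at a distance of 3.13 to 3.49. They were ISYNA1 of inositol synthesis, SLC15A1, the peptide transporter PepT1, ASNS, asparagine synthetase, the growth factor gene IGF2, PRTN3, a protease of granulocyte precursors, TFRC, the transferrin receptor, LOC100519808 and EMB, embigin. AFP and PEG10 stayed nearest and second with quantile normalization and with the floor. SLC15A1, PRTN3 and TFRC dropped to ranks 81, 389 and 439 with the floor, since their stage means at 1 dpn lay near the array median. IGF2 was measured by 13 probe-sets that did not run alike, since their changes from 1 to 28 dpn ranged from −4.11 to 3.55 and 10 of them were below −1. The 3 probe-sets of PEG10 changed by −1.75 to −6.19. By Pearson correlation over the 4 stage means, which ignores the size of the change, 114 genes had an r of at least 0.99 with S100G, and none of the 10 genes above was among the 10 highest.

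**Figure D2:**
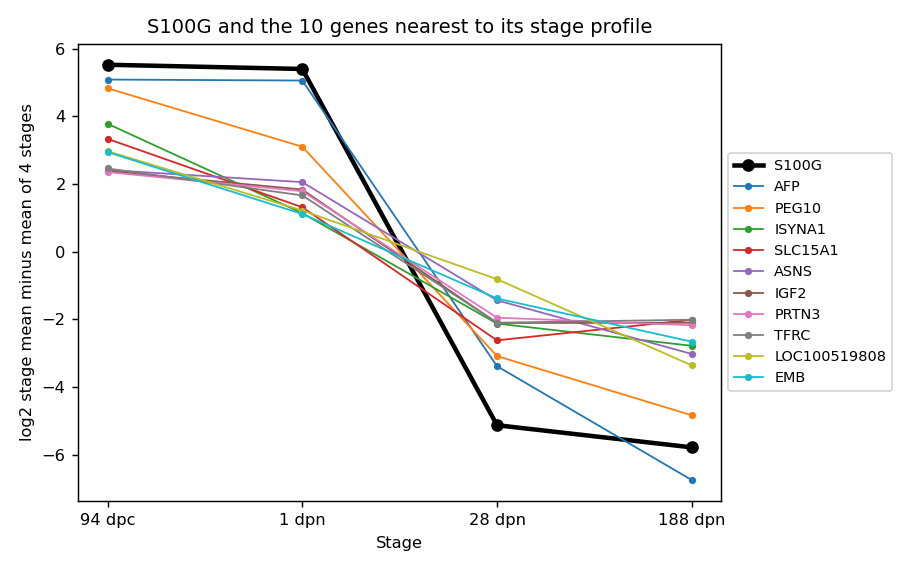
The log2 stage mean minus the mean of the 4 stage means (y axis) is drawn over the 4 stages (x axis) for S100G in black and for the 10 genes nearest to it. AFP and PEG10 run closest to S100G, at root mean square differences of 1.04 and 1.65, and the other 8 genes change less, at differences of 3.13 to 3.49.

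The animal-to-animal differences in S100G were compared with those of other genes separately in each stage. At 94 dpc 19 of 4952 genes had a Pearson r of at least 0.7 with S100G over the 16 fetuses and 7 had one of −0.7 or less. Without the 2 outlying arrays of that stage, those of animals 1 and 5, these were 22 and 9 genes, of which 12 and 5 were the same. At 1 dpn these were 31 and 26 of 5073 genes over 14 piglets. At 28 and 188 dpn, where S100G lay in the background, 2 and 2 genes reached 0.7 and 3 and 6 reached −0.7, and none is named for these stages. All points of a stage share the array scaling, and littermates are among them. At 94 dpc r with the GAPDH 3-prime to 5-prime difference was 0.42 and with the mean correlation of an array to its own stage −0.59, and at 1 dpn these were −0.66 and 0.08. The part of array quality in the correlations was not tested.

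In the fetuses, HP, which encodes the plasma protein haptoglobin, had the highest r at 0.84, with a Spearman rank correlation of 0.81. PSAT1, an enzyme of serine synthesis, followed at 0.83, then BEX3, SNX22 and SERPINA6, the corticosteroid-binding globulin of plasma, each at 0.79. All 5 stayed between 0.68 and 0.79 without the 2 fetuses farthest from the median, and HP and PSAT1 fell to 0.61 and 0.51 with quantile normalization. Further plasma protein genes among the lists examined had values of 0.64 for GC, the vitamin D-binding protein, 0.61 for ALB and 0.59 for AFP. These did not hold with quantile normalization, which gave 0.31 for GC, −0.19 for ALB and 0.13 for AFP. The lowest values belonged to PRPF4, a splicing factor, at −0.82, CHTOP, an mRNA export factor, at −0.80, PLEKHB2 at −0.74, the tropomyosin gene TPM1 at −0.73 and the homeobox gene MEIS2 at −0.72. With array medians subtracted these 5 were between −0.64 and −0.53.

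At 1 dpn, CDC42, a small GTPase of the cytoskeleton, had the highest r at 0.91, and 0.86 without animal 21. NDUFA4, a mitochondrial respiratory chain protein, had 0.87, ARHGEF6 0.86, LOC100516480 0.83 and NANOS1 0.83. Without animal 21 these 4 ranged from 0.74 to 0.86, and 16 genes reached 0.7, of which 11 were among the 31 counted above, while 22 reached −0.7, of which 6 were among the 26. The lowest values were −0.88 for the chaperone gene BAG6, and −0.80 for AKT1S1, a subunit of the mTOR complex, for NCOA1, a coactivator of nuclear receptors, and for TTYH2, followed by −0.79 for ENG, endoglin of endothelium. Without animal 21 they ranged from −0.80 to −0.68. Without the 2 piglets farthest from the median of S100G, the genes named here as highest had an r of 0.66 to 0.84. Those named as lowest then had −0.75 to −0.56. With quantile normalization LOC100516480 had 0.65. NANOS1 had levels of 5.60 to 8.08, around the array median. The values of HP and ALB at 1 dpn were 0.23 and 0.16, or 0.36 and 0.31 without animal 21. AFP had 0.26 and PEG10 −0.51, or 0.46 and −0.32 without animal 21. In the fetuses PEG10 had 0.54, which was 0.10 with quantile normalization. The differences between the stages were not tested.

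Most partners were not shared by the stages. Over 4813 genes measured in both, r at 94 dpc and r at 1 dpn were themselves correlated at 0.03, and 29 genes had an r of at least 0.5 in both stages, while 3 had one of −0.5 or less. BEX3 had the highest mean, with 0.79 in fetuses and 0.80 at 1 dpn, and 0.70 at 1 dpn without animal 21. ARHGEF6 had 0.58 and 0.86, and SNX22 0.79 and 0.58. PLIN2, which encodes a coat protein of lipid droplets, had 0.67 and 0.68. FAU, which encodes a ribosomal protein fused to a ubiquitin-like one, had 0.59 and 0.81 but −0.33 and 0.44 with quantile normalization. TPM1 had the lowest mean with −0.73 and −0.63, followed by ENG with −0.43 and −0.79, SLC31A2 with −0.45 and −0.76, CAPN2 with −0.45 and −0.72 and RNPEP with −0.36 and −0.76. Without animal 21 the values at 1 dpn were −0.47 for TPM1 and 0.46 for SNX22, and those of ENG, SLC31A2, CAPN2 and RNPEP lay between −0.73 and −0.62. Without animals 1 and 5 the fetal values were −0.62 for ENG and −0.20 for RNPEP. In the fetuses RNPEP had a Spearman rank correlation of −0.09. Its fetal levels ran from 4.24 through a median of 7.43 to 7.90, around the array median. Values also moved without the 2 animals farthest from the stage median of S100G. The fetal ones were then 0.31 for ARHGEF6, 0.39 for FAU and −0.29 for SLC31A2, and those at 1 dpn 0.22 for SNX22 and −0.43 for TPM1. BEX3 kept 0.74 in fetuses and 0.70 at 1 dpn, and PLIN2 had 0.57 and 0.79.

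**Figure D3:**
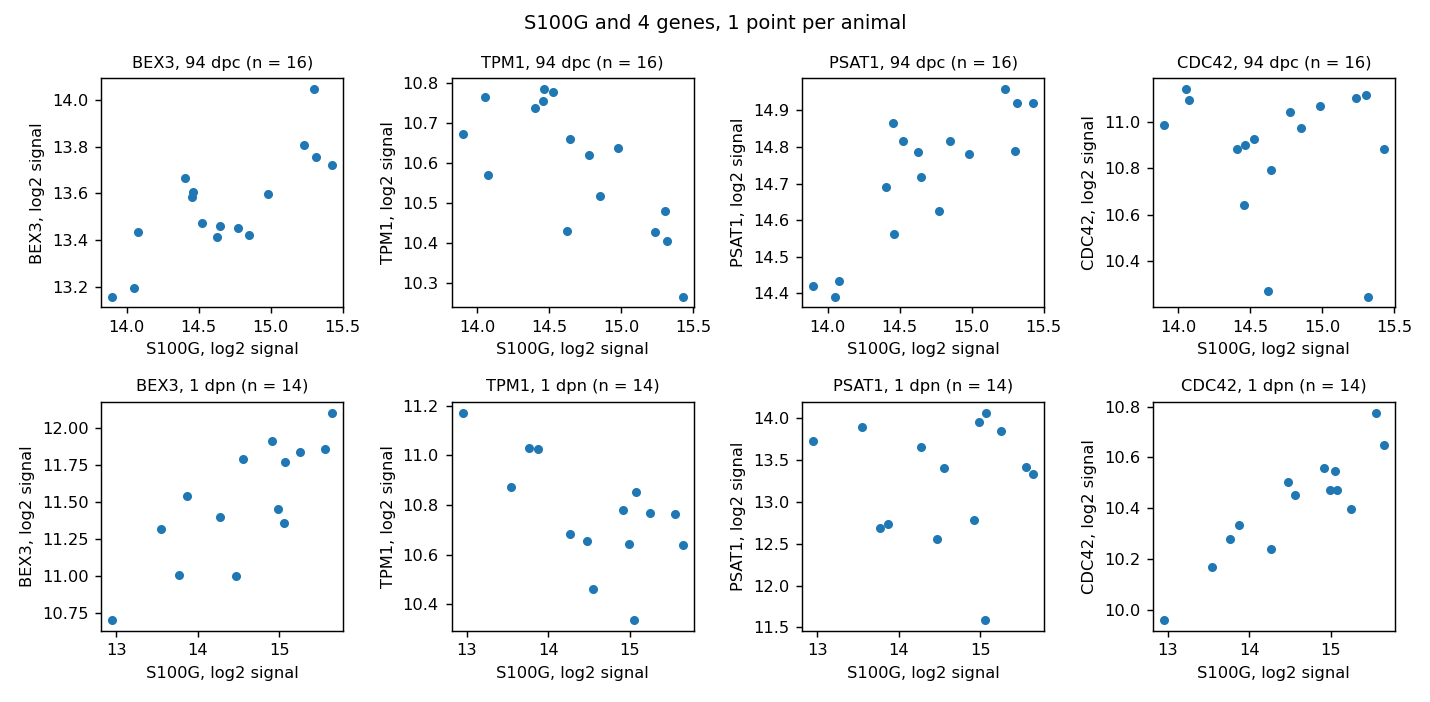
The log2 signal of BEX3, TPM1, PSAT1 and CDC42 (y axes) is plotted against the log2 signal of S100G (x axes), with 1 point per animal, for the 16 fetuses in the upper row and the 14 piglets at 1 dpn in the lower row. BEX3 rises with S100G in both stages and TPM1 runs the other way, whereas PSAT1 has an r of 0.83 in the upper row and −0.04 in the lower one, and CDC42 one of −0.17 in the upper row and 0.91 in the lower one.

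Lists of genes from fields related to calbindin-D9k were examined next. They held 24 genes of vitamin D, 47 of calcium transport and stores, and 61 S100 and EF-hand proteins other than S100G. Another held 28 receptors and regulators of steroid and thyroid hormone action. Of these 160 genes 103 had a probe-set of their own. A change is the later minus the earlier stage mean on the log2 scale, with its SE from limma, and a gene was called when P and Storey q were both at most 0.05. From 94 dpc to 1 dpn (period I) 26 of 65 tested genes were called higher and 21 lower, where 26.1% and 41.6% of all tested probe-sets were. From 1 to 28 dpn (period II) 24 of 67 were higher and 23 lower, against 29.0% and 41.4% of all. From 28 to 188 dpn (period III) 11 of 63 were higher and 26 lower, against 18.3% and 35.7%. These shares are also the background for the counts of the single lists and of the cell type lists below. They are not a like measure, since they cover all tested probe-sets, while a listed gene is counted by its brightest one. With the probe-sets of a gene averaged, 27 listed genes of 63 were higher and 15 lower in period I. In period II these were 18 and 22 of 61, and in period III 10 and 27 of 57. The scaling sets part of this split. Over all tested probe-sets the median change in the 3 periods was −0.16, −0.14 and −0.14, and 0.02, 0.27 and 0.07 with array medians subtracted, which gave 35 higher and 14 lower genes in period I, 45 and 14 in period II, and 19 and 19 in period III. Between 1 and 28 dpn the listed genes with the largest decreases were RARB, a retinoic acid receptor, at −2.11 ± 0.29 (SE), and NUCB2 at −1.94 ± 0.22. With the floor these were −0.90 and −1.94, against −7.67 for S100G, and the call of RARB was lost when its probe-sets were averaged.

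**Figure D4:**
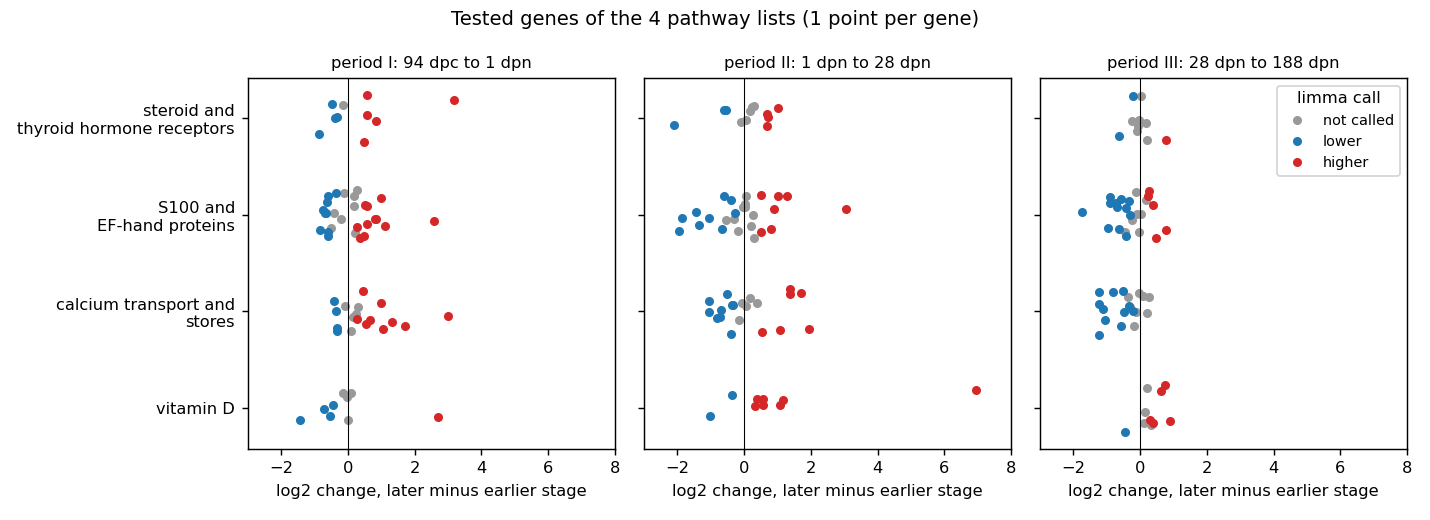
Each point is a tested gene of 1 of the 4 lists (y axis) with its log2 change from the earlier to the later stage (x axis) in the 3 periods, coloured by the limma call. In period II the points run from −2.11 for RARB to 6.94 for CYP3A29, and S100G, not drawn, changed by −10.53.

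Of the vitamin D genes, 17 had a probe-set. The vitamin D receptor VDR was not named by any of them, so its level was not measured here. CYP24A1, the enzyme that breaks down active vitamin D and a standard target of the receptor, was below the array median in all 61 animals, with stage means of 4.08 to 5.78. CYP27B1, which makes the active form, was likewise above it in none. GC was high at all stages, with means of 15.92 ± 0.33, 15.78 ± 0.23, 15.60 ± 0.21 and 15.50 ± 0.23 (SD). In period I 1 of 9 tested genes was called higher and 4 lower. CYP2D25, which encodes the porcine microsomal 25-hydroxylase, changed by 2.70 ± 0.30 (SE, q = 7.9e-10) with its brighter probe-set, whereas the other fell by 0.47. NCOA2, a coactivator of nuclear receptors, fell by 1.43 ± 0.13 and RXRA, the retinoid partner of VDR, by 0.72 ± 0.13. In period II 7 of 9 were higher and 2 lower. CYP3A29, an enzyme of the family that oxidises drugs, steroids and vitamin D, rose by 6.94 ± 0.24, from 6.71 to 13.66 with no overlap of the stages. CYP27A1, the mitochondrial 25-hydroxylase, rose by 1.08 ± 0.13, although its other 2 probe-sets did not pass the test, and RXRA fell by a further 1.01 ± 0.16. In period III 5 of 10 were higher and 1 lower, with CYP3A29 at 0.90 ± 0.18 and CYP27A1 at 0.75 ± 0.09. RXRA rose by 0.61 ± 0.16 in period III, and its calls were lost in all 3 periods when the probe-sets of the gene were averaged.

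Of the genes of calcium transport and stores, 31 had a probe-set. TRPV6, the channel through which calcium enters duodenal cells, had stage means of 5.33 to 5.61 and exceeded the array median in 1 piglet at 28 dpn and 1 pig at 188 dpn. ATP2B1, a calcium pump of the plasma membrane, was not called in period I and fell by 1.04 and 0.81 in periods II and III. In period I 9 of 18 tested genes were higher and 4 lower. These included ATP2A2, the calcium pump of the endoplasmic reticulum, at 3.00 ± 0.43 (SE) with its brightest probe-set but 0.21 to 0.73 with the other 3, LETM1 of the inner mitochondrial membrane at 1.71 ± 0.12, and the chaperones PDIA3 and HSP90B1 of the endoplasmic reticulum at 1.31 ± 0.09 and 1.05 ± 0.13. In period II 6 of 20 were higher and 9 lower. CALR, the calcium-storing chaperone calreticulin, rose by 1.95 ± 0.11 with no overlap and ORAI3, a store-operated channel, by 1.70 ± 0.16. PDIA3 fell by 0.80 ± 0.10 and HSP90B1 by 0.73 ± 0.16. The 4 probe-sets of ATP2A2 disagreed in direction in this period, since the brightest changed by 1.38 and the others by −0.77 to −1.89. In period III 0 of 19 were higher and 11 lower by limma, with HSPA5, HSP90B1, PDIA3 and CALR at −1.24, −1.23, −1.22 and −1.10.

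The nearest relatives of S100G were taken gene by gene. CALB1, which encodes the larger calbindin-D28k, had no probe-set of its own, and CALB2, calretinin, lay below the array median in all animals. Of the 9 other S100 genes with a probe-set of their own, S100A10, the partner of annexin A2, had means of 12.19 ± 0.13, 12.67 ± 0.18, 13.17 ± 0.18 and 13.16 ± 0.25 (SD), and rose by 0.48 in period I and 0.50 in period II. The call of period II was lost with quantile normalization. S100A1 and S100A11 stayed between 10.26 and 11.91. S100A11 rose by 0.83 ± 0.13 (SE) in period I and fell by 0.90 ± 0.12 in period III, and S100A1 rose by 0.38 and then fell by 0.38 and 0.56, where the call of period II was lost with array medians subtracted. S100A4, known from macrophages and fibroblasts, took the opposite course to S100G in period II, from 5.00 ± 1.40 to 8.07 ± 0.70 (SD), a change of 3.07 ± 0.38 (SE, q = 6.7e-09) that came to 0.82 with the floor. The 3 granulocyte genes fell in the same period, S100A9 by 1.86 ± 0.34, S100A12 by 1.43 ± 0.28 and S100A8 by 1.04 ± 0.26. With the floor these changes were −1.81, −0.67 and −0.91. In period I S100A12 was called lower at −0.59, a call lost in 6 recomputations, whereas S100A9 and S100A8 were not called, at −0.41 and −0.49. In period III S100A9 was not called, and S100A8 and S100A12 were not tested. S100A6 and S100A16 were represented only by probe-sets with several symbols and are not reported. S100A14 changed by 1.00 in period I and −0.43 in period III, and S100B by −0.66 and 0.77, both at levels close to the array median. The call of S100A14 in period III did not hold in a single fit of the 4 stages, nor after either change of scaling.

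**Figure D5:**
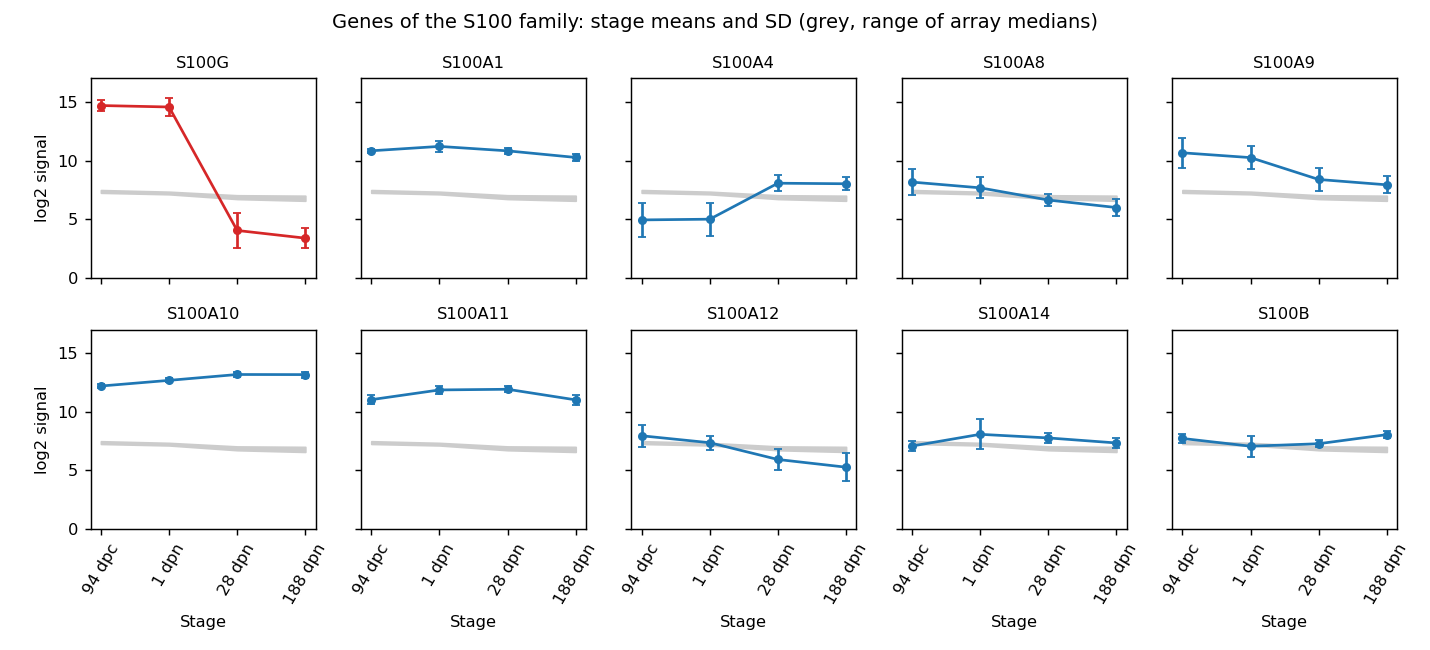
Stage means of the log2 signal with SD (y axes) are plotted over the 4 stages (x axes) for S100G in red and 9 other S100 genes in blue, with the range of the array medians in grey. S100G drops from 14.56 to 4.04 between 1 and 28 dpn, S100A4 crosses the array median upwards from 5.00 to 8.07, and S100A1, S100A10 and S100A11 stay above 10.2 in each stage.

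In the wider EF-hand list 11 of 28 tested genes were higher and 9 lower in period I, 7 of 26 and 9 in period II, and 5 of 24 and 12 in period III. NUCB2, which encodes the calcium-binding protein nucleobindin-2, rose by 2.59 ± 0.19 in period I and fell by 1.94 ± 0.22 and 1.75 ± 0.21 in the periods after it. Among the receptors and regulators 5 of 10 were higher and 4 lower in period I, 4 of 12 and 3 in period II, and 1 of 10 and 2 in period III. GHR, the growth hormone receptor, rose from 4.63 to 7.82 in period I, a change of 3.19 ± 0.36, which came to 0.50 with the floor, and by a further 1.02 ± 0.18 in period II. The progesterone receptor gene PGR was below the array median in all animals. The estrogen receptor gene ESR1 was above it in 4 fetuses, 5 piglets at 1 dpn, 1 at 28 dpn and 2 pigs at 188 dpn. NR3C1, the glucocorticoid receptor, was called lower in periods I and II, by 0.38 and 0.52, but neither call held with quantile normalization or array medians subtracted.

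Of the 20 genes that flank S100G in the RefSeq table, 10 on each side, 3 had a probe-set of their own. CTPS2, which overlaps S100G there, had none. SYAP1, TXLNG and RBBP7 fell in period I by 0.85 ± 0.10, 0.76 ± 0.19 and 0.50 ± 0.07 (SE), a period in which S100G did not change beyond its spread. In period II SYAP1 rose by 0.47 ± 0.15, TXLNG was not called at 0.33 and RBBP7 was not tested.

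The tissues in which calbindin-D9k is best known were checked through their markers. Of 27 intestinal markers 16 were measured. Their summed signal ranged from 9104 to 13950 in fetuses and from 8321 to 20957 at 1 dpn, then from 6484 to 12853 at 28 dpn, and from 7387 to 27515 in the oldest pigs, so that all stages overlapped. FABP2, FABP6, GUCA2B, MEP1B, OLFM4 and REG4 were below the array median in all 61 animals. In period II 4 of 5 tested intestinal markers were called lower, with a median change of −0.78, where 41.4% of all tested probe-sets were called lower. The 4 were CDH17 at −1.77 ± 0.31 (SE), APOA4 at −0.83 ± 0.36, VIL1 at −0.78 ± 0.21 and ANPEP at −0.30 ± 0.14. The sum was carried by ANPEP, DPP4 and APOA4, which hepatocytes also express, while the mean of VIL1 was 9.81 at 94 dpc and 7.50 at 188 dpn, and that of CDH17 8.46 and 6.15. A marker was counted as above the array median at a stage when at least 50% of its animals exceeded it. By this rule the 3 measured kidney tubule markers, SLC22A6, SLC22A8 and LRP2, were above it at no stage, and of 7 measured genes of endometrium and placenta 1, ACP5, was. Of 10 measured genes of exocrine pancreas 1, AMY2, was above it.

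Several lists of cells that a liver sample can hold differed between 1 and 28 dpn, the period in which the S100G signal was lost. The sum of 7 measured fetal hepatocyte genes, AFP, PEG10 and IGF2 among them, had medians of 171031 and 114536 at 94 dpc and 1 dpn, and of 9835 and 16019 at the later stages, and the ranges of 1 and 28 dpn did not overlap. The sum of 8 granulocyte genes had a median of 5317 at 1 dpn and 1240 at 28 dpn. Of its 7 tested genes 7 were called lower in that period, against 41.4% of all tested probe-sets. The sum of 10 erythroid genes had a median of 14978 at 94 dpc and 2849 at 1 dpn. The sum of 11 macrophage genes had a median of 31634 at 1 dpn and 87354 at 28 dpn, that of 12 T and NK cell genes 882 and 3598, and neither pair of ranges overlapped. The share of all genes whose ranges did not overlap is not given here. The sum of 17 hepatocyte genes ranged from 647642 to 1038070 at 1 dpn and from 510287 to 921448 at 28 dpn. Between these stages 10 of 13 tested hepatocyte genes were called lower and 1 higher, with a median change of −0.48. Of all tested probe-sets 41.4% were called lower and 29.0% higher. Their median change was −0.14, or 0.27 with array medians subtracted. The part of these cell populations in the S100G signal was not tested.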

How the data were processed

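61 one-colour Affymetrix porcine arrays of LP liver, 1 per animal, were analysed. The deposited values are linear signal intensity that the authors produced with GCOS 1.1.1 and scaled globally, so that the trimmed mean is the same on each array. A difference relative to total RNA output is not seen after such scaling. The number of arrays and the spread of animals limit the precision, and p-values measure the spread of these animals, among them littermates. No 2 arrays held identical values.

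Values were log2 transformed. Probe-sets were named by the platform annotation, updated by gene ID through RefSeq: 10069 carried 1 symbol (9961 of them found in RefSeq), 198 several and 13732 none. Where a gene had several, the probe-set with the highest mean over all arrays stood for it. For each period, probe-sets that exceeded the array median in 50% or more of the animals at 1 stage and with an SD above 0.25 were tested with limma 3.58.1 (R 4.3.3), two-sided, and called at P and Storey q of at most 0.05. Sex, mother and weight, which the study modelled, were not in the labels and no covariate was used. Adjacent periods share the animals of a stage. On simulated data 96.0% to 97.5% of 200 probe-sets changed by 1 on the log2 scale were recovered in the 3 periods, and 3.52% to 6.70% of the calls were false. The simulated noise was normal and independent for each probe-set, without litters, and 9433 to 10034 probe-sets were tested, so that few truly changed. The share of false calls in the real data was therefore not measured. Correlations were computed within a stage with Python 3.11.15 over genes that exceeded the array median in 50% or more of its animals. Arrays whose 3-prime to 5-prime difference departed from the stage median by over 3 scaled median absolute deviations were taken as outlying, a rule chosen after seeing the data. S100G, the lists and the tests were chosen with earlier results of these data known.

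The genes named were S100G, in each pathway list up to 4 called genes per period and direction with the largest change, VDR, CYP24A1, TRPV6, CALB1 and the S100 genes, up to 3 markers per cell type list by signal, the 10 genes nearest to S100G, the 5 highest and lowest correlations at 94 dpc, at 1 dpn and in both, called neighbours, AFP and PEG10. Further genes of the lists were named after their values were seen. Alternatives changed the scaling, the floor, a pseudocount of 16, the filters, the probe-set, the adjustment and the arrays used.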

Additional observations from a re-analysis of the deposited data

How the results depend on the processing

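Animals were killed for sampling, so none was measured at 2 stages, and the replicate numbers of the labels run on through the stages. Littermates, within a stage or across the postnatal stages, could not be matched because the labels name no mother. The deposited values give no probe-level detection, so the levels of S100G at 28 and 188 dpn are bounds set by the background.

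The S100G level moved by more than its SD in 7 of 28 recomputations. With the other probe-set it was 7.37, 7.63, 5.69 and 5.54 in stage order, with the array median as floor 6.89 at 28 dpn and 6.73 at 188 dpn, and with a pseudocount of 16 it was 4.78 at 188 dpn. The difference from 1 to 28 dpn became −7.67 with the floor and −1.94 with the other probe-set, and stayed between −10.67 and −9.39 otherwise. With array medians subtracted 45 listed genes were higher and 14 lower in period II and 19 higher in period III, and the other 57 recomputed counts were within 1.5 times those reported. Genes with r of at least 0.7 at 94 dpc numbered 8 by Spearman rank correlation, 9 with quantile normalization and 4 without the 2 fetuses farthest from the median, and those of −0.7 or less 3 with quantile normalization and 1 with array medians subtracted. At 1 dpn 16 genes reached 0.7 without animal 21. A count that stayed could hold other genes. Without the 2 piglets farthest from the median 26 genes reached 0.7 at 1 dpn, of which 10 were among the 31 reported. Those at −0.7 or less then numbered 36, of which 5 were among the 26 reported. The 1 gene left at 94 dpc with array medians subtracted was not among the 7 reported. Of the 10 genes nearest to S100G 6 stayed with the floor and 0 by Pearson correlation. The cause was not tested, except that the floor and the pseudocount compress weak signals by construction.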
